A study of Mus musculus with 6 samples.

Results

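Nucleoporins are the proteins that build the nuclear pore complex, the channel through which RNA and protein pass between nucleus and cytoplasm. They form a scaffold of rings, a set of membrane anchors, fibres on the cytoplasmic side and a basket on the nuclear side. Many carry stretches rich in phenylalanine and glycine (FG repeats), which line the channel and bind transport receptors, and these proteins are among the most heavily O-GlcNAcylated in the cell. O-GlcNAc transferase (OGT) adds this sugar to serines and threonines, and OGA, encoded by *Mgea5*, removes it. The comparison here asks whether the RNA of the nucleoporin genes differed between Treg cells with and without OGT. It concerns RNA only, since neither nucleoporin protein nor its modification was measured in these samples.

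The nucleoporin genes were chosen by name from the deposited table of 24420 genes: every symbol that starts with Nup and a number, and *Nupl1*, *Nupl2*, *Tpr*, *Rae1*, *Sec13*, *Seh1l*, *Ndc1*, *Pom121*, *Aaas*, *Ranbp2* and *Ahctf1*. This gave 33 genes. Of these, 31 had enough counts to be tested. The others were *Nup62-il4i1*, a read-through symbol next to *Nup62* whose counts were 0, 0 and 3 in OGT-sufficient and 2, 0 and 1 in OGT-deficient samples, and *Nup62cl*, a *Nup62* paralog with 0 counts in all 6 samples. By name alone the rule also took in *Nup210l*, a paralog of *Nup210* that is not known as a part of the pore in lymphocytes.

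The RNA came from YFP+ Treg cells sorted from lymph nodes of female C57BL/6 mice. The OGT-sufficient samples (n = 3) combined *Foxp3*YFP-Cre/wt with *Ogt*wt/fl, and the OGT-deficient samples (n = 3) combined it with *Ogt*fl/fl. Both genotypes therefore carry the YFP-Cre fusion at the *Foxp3* locus, which is active in Treg cells, and at least 1 floxed *Ogt* allele. *Foxp3* and *Ogt* are X-linked, so X inactivation makes these females mosaics in which only some Treg cells express Cre, and YFP was used to sort those cells. The labels give no age for these mice, and the study's methods state only a general rule, under which its mice other than the hemizygous *Ogt*fl/Y males and their controls were young adults. The labels number the samples but do not say that each came from a single mouse, so the p-values measure the spread between these samples.

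The total count per sample was between 3375454 and 4103552, and the nucleoporin genes received between 10711 and 12161 of these counts. OGT-sufficient replicate 3 stood apart from the other libraries. The share of the ribosomal RNA gene *Rn45s* was 24.2% there and between 30.6% and 37.1% elsewhere, and 310 olfactory receptor genes had a count there, against 13 to 56 elsewhere. All 6 Treg and T-cell markers examined (*Foxp3*, *Il2ra*, *Ctla4*, *Ikzf2*, *Cd4*, *Cd3e*) were detected, with a summed level between 1966 and 2903 CPM over the 6 samples. Markers of other cells were also present. The summed level of 10 macrophage genes was 1850 to 3909 CPM in OGT-sufficient and 1373 to 5588 CPM in OGT-deficient samples. The 4 neutrophil genes in the table (of 5 listed) summed to 28.3, 13.7 and 138 CPM in OGT-sufficient replicates 1, 2 and 3. In OGT-deficient samples they summed to 6.71 to 12.9 CPM. These groups did not overlap, but only narrowly (13.7 against 12.9 CPM), and the highest sum came from OGT-sufficient replicate 3. The 9 B-cell genes summed to 382 to 777 against 419 to 618 CPM, the 2 CD8 genes to 18.2 to 22.6 against 12.1 to 26.6 CPM, and the 6 erythroid genes to 212 to 838 against 212 to 472 CPM, with *Hba-a1* at 0 in every sample. OGT-sufficient replicate 3 had the highest B-cell and erythroid sums and the lowest sum of Treg and T-cell markers (1966 CPM). It also had the highest levels of *Mpo* and *S100a9*, the neutrophil genes tested. At an unadjusted p under 0.05, 2 of the 2 neutrophil genes tested and 1 of the 9 B-cell genes were lower in OGT-deficient samples (4.01% of all genes tested were lower). Of the 10 macrophage, 2 CD8 and 4 erythroid genes tested, 0 passed that p in either direction (7.1% of all genes tested did). The part of these cells in the values below was not tested. In such bulk samples, fewer cells of a type and less RNA per cell cannot be told apart.

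The targeted gene was lower in each OGT-deficient sample. *Ogt* was at 150, 170 and 252 CPM in OGT-sufficient replicates 1, 2 and 3, and at 84.4, 67.3 and 96.4 CPM in OGT-deficient replicates 1, 2 and 3, where CPM is the count scaled by the TMM library size. Its log2 fold change (OGT-deficient over OGT-sufficient) was -1.21, with a 95% interval from -1.68 to -0.73 (edgeR's quasi-likelihood test, unadjusted p = 0.000302, adjusted p = 0.191). The counts cover the whole gene, and the floxed exons were not read apart. *Mgea5*, which encodes the enzyme that removes O-GlcNAc, was at 281, 271 and 344 CPM against 182, 171 and 155 CPM, with a log2 fold change of -0.82 (95% interval -1.11 to -0.53, unadjusted p = 0.000145, adjusted p = 0.191). Its exons overlap an antisense gene. Neither gene passed a false discovery rate (FDR) of 0.1 over all genes tested.

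The sequences upstream of the nucleoporin genes, which are independent of the counts, were searched for common promoter motifs. RefSeq (GRCm38.p6) gave the 250 bases before 31 annotated starts of 28 of the 33 genes, 1 of them (*Nup62-il4i1*) through the current symbol *Il4i1b*. These windows held a median of 21 CpG dinucleotides, against 16 over the 10648 windows of genes tested and 6 over all 32851 windows. The NRF1 motif, a run of 10 letters that reads the same on both strands and is spelled out in capitals in the windows printed here, was in 3 of the 31 windows (9.68%), against 1.77% of the windows of genes tested and 0.782% of all windows. The ETS motif CCGGAAGT, searched on both strands, was in 4 windows (12.9%, against 6.26% and 2.88%). The GC box GGGCGG was in 58.1% of the nucleoporin windows, against 57.4% and 32.7%, and the CCAAT box in 41.9%, against 35.4% and 33.8%. TATAAA was in 9.68% of them, against 6.36% and 12.4%, and the cyclic AMP element TGACGTCA in 6.45%, against 2.62% and 1.55%, both also on either strand. Counted by gene and not by window, the GC box was in 60.7% of the nucleoporin genes, against 63.9% of genes tested and 35.4% of all genes. The CCAAT box was then in 39.3%, against 40.7% and 37.5%, so its higher share held only by window. The windows of *Nup37* overlap and hold the same CCAAT box. No searched motif lies within another. The windows of the 3 genes with the NRF1 motif are shown because this motif, of the 6 searched, had the largest ratio between its share in nucleoporin windows and its share in windows of genes tested or in all windows. They belong to *Nup62* (chr7:44815838-44816087, plus strand), *Nup107* (chr10:117792706-117792955, minus strand) and *Nup50* (chr15:84923178-84923427, plus strand), are written 5′ to 3′ along the gene and end at the base before the start. The last 17 bases of the *Nup50* window lie within an exon of GENCODE M21, and the windows of *Nup62* and *Nup107* hold 0 exon bases. Other windows in the shares above overlap exons more, counting any gene on either strand. Those of *Ahctf1*, *Ndc1*, *Nup133* and *Nup62-il4i1* lie in exons over all 250 bases, and that of *Tpr* over 234. Capitals mark the NRF1 motif (the runs of 10) and the CCAAT box (CCAAT or its reverse complement).
Nup62: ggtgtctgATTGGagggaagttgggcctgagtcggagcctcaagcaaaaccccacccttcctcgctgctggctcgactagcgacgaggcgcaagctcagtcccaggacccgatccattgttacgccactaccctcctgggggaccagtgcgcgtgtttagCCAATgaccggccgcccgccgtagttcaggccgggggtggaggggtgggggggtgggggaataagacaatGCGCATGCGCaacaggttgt
Nup107: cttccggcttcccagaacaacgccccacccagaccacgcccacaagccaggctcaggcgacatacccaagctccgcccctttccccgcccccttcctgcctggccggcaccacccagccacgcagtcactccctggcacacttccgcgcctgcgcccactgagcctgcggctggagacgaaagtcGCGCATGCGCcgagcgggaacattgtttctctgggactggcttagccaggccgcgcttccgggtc
Nup50: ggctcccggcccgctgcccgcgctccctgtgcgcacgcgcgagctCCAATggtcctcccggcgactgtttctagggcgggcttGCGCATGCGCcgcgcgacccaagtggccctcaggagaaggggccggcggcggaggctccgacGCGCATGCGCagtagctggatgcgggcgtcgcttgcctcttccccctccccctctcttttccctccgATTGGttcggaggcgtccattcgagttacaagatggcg
A match is a description of the letters and not a binding site. None of the 3 genes passed an unadjusted p of 0.05 in the comparison of genotypes, with log2 fold changes of 0.050 for *Nup62*, -0.018 for *Nup107* and -0.085 for *Nup50*.

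In these sorted samples, where markers of other cells were also present, the nucleoporin genes covered a wide range of levels. Per kilobase of exon (RPKM, from the exon length in GENCODE M21), the mean over the 6 samples ran from 1.28 for *Nupl2* to 64.0 for *Tpr*, a ratio of 50.0. The nuclear basket, which faces the chromatin and takes part in RNA export, led the order: *Tpr* was followed by *Nup153* at 40.3 RPKM, and *Nup50* was the fifth at 21.6 RPKM. *Ranbp2* (35.5 RPKM), the giant protein of the cytoplasmic fibres that binds Ran, and *Nup210* (27.0 RPKM), a membrane-spanning nucleoporin known for its role in T cells, stood between them. In the OGT-sufficient samples *Nup153* was at 38.0 ± 2.77 and *Ranbp2* at 35.4 ± 3.01 RPKM (SD, n = 3 each), a difference within their spread. In the OGT-deficient samples their ranges did not overlap, with *Nup153* at 37.9 to 45.4 and *Ranbp2* at 34.5 to 36.5 RPKM. Within each of the 6 samples *Nup153* was above *Ranbp2*. Further down lay *Nup62* at 14.7 RPKM. From *Nup214* (13.2 RPKM) through *Pom121*, *Nup107*, *Sec13* and *Rae1* to *Nup98* (11.5 RPKM), neighbours in the order differed by less than the larger of their SDs. In all, 13 of the 33 genes had a mean above 10 RPKM. The lowest 6 genes tested, under 3 RPKM, were *Nup43*, *Ndc1*, *Nup37*, *Nup210l*, *Nup35* and *Nupl2*, and *Nup43*, the highest of them at 2.21 RPKM, was followed upward by *Nup133* at 4.14 RPKM. A length summed over all annotated exons understates genes whose long isoforms are not used.

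**Figure D1:**
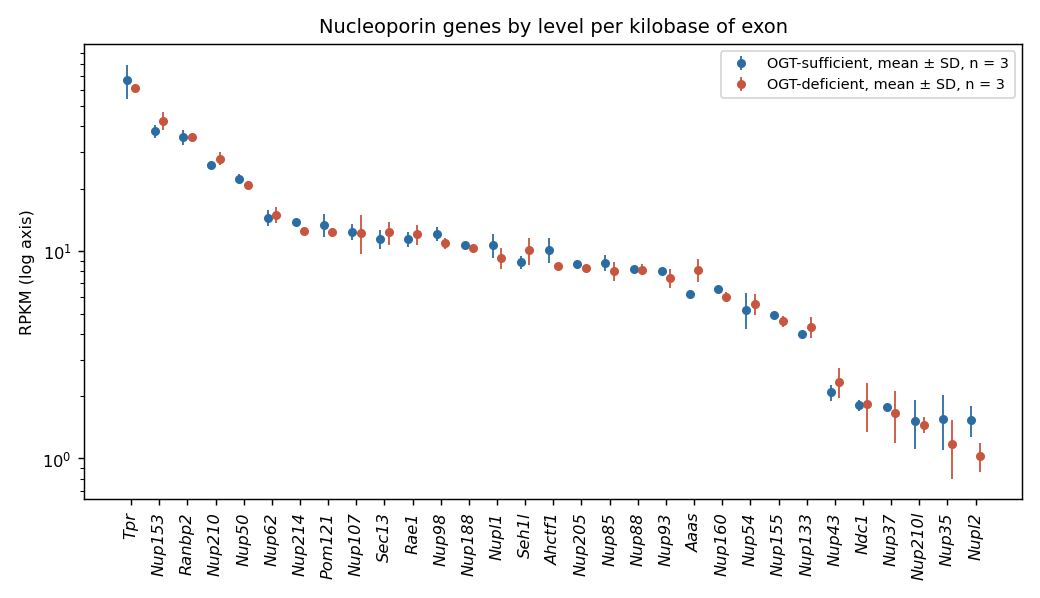
Mean RPKM on a log axis for the 31 tested nucleoporin genes, ordered by their mean over all samples, with OGT-sufficient samples in blue and OGT-deficient samples in red (bars: SD, n = 3 each). *Tpr* is highest and *Nupl2* lowest, and the points of the 2 groups lie close together at nearly every gene.

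The summed nucleoporin RNA overlapped between the genotypes. The 33 genes together took 2862, 2953 and 3202 CPM in OGT-sufficient replicates 1, 2 and 3, and 2969, 2888 and 2933 CPM in OGT-deficient replicates 1, 2 and 3. These groups overlapped, and the highest sum belonged to OGT-sufficient replicate 3, the library that stands apart. Much of this excess was *Tpr*, which made up 26.7% of the sum there and between 21.1% and 22.5% elsewhere. Without *Tpr* the sums were 2239, 2330 and 2347 CPM against 2324, 2267 and 2272 CPM. The 31 genes tested had a median log2 fold change of -0.060, against -0.017 for all 10949 tested. Of the 31, 19 genes were on the lower side of 0 (61.3%, beside 52.7% of all genes tested) and 12 on the higher side.

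None of the 31 genes passed an FDR of 0.1 in edgeR's quasi-likelihood test, where 0.0274% of all genes tested did, and the lowest adjusted p among them was 0.685. At an unadjusted p under 0.05, 1 gene was higher (3.09% of all genes tested) and 0 genes were lower (4.01% of all genes tested). DESeq2 and edgeR's exact test gave 0 genes at an FDR of 0.1 and 0 at an unadjusted p under 0.05 in either direction. In 6 of the 31 genes, all samples of one group lay above all of the other, which is 19.4% beside 13.2% of all genes tested. OGT-deficient samples were lower in 4 of these (7.48% of all genes tested) and higher in 2 (5.72%).

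A p that misses the threshold does not show that levels were equal, so the intervals are given. The 95% interval of the log2 fold change lay within 0.5 of 0 on both sides in 20 of the 31 genes, and in 31.2% of all genes tested. It lay within 1 of 0, that is within a 2-fold difference either way, in 29 of the 31 genes, and in 77.8% of all genes tested. The exceptions were *Nupl2* and *Nup35*, the tested nucleoporin genes with the fewest counts. The number of counts bears on these widths: the nucleoporin genes tested had a median of 161 counts per sample, against 92 over all genes tested.

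**Figure D2:**
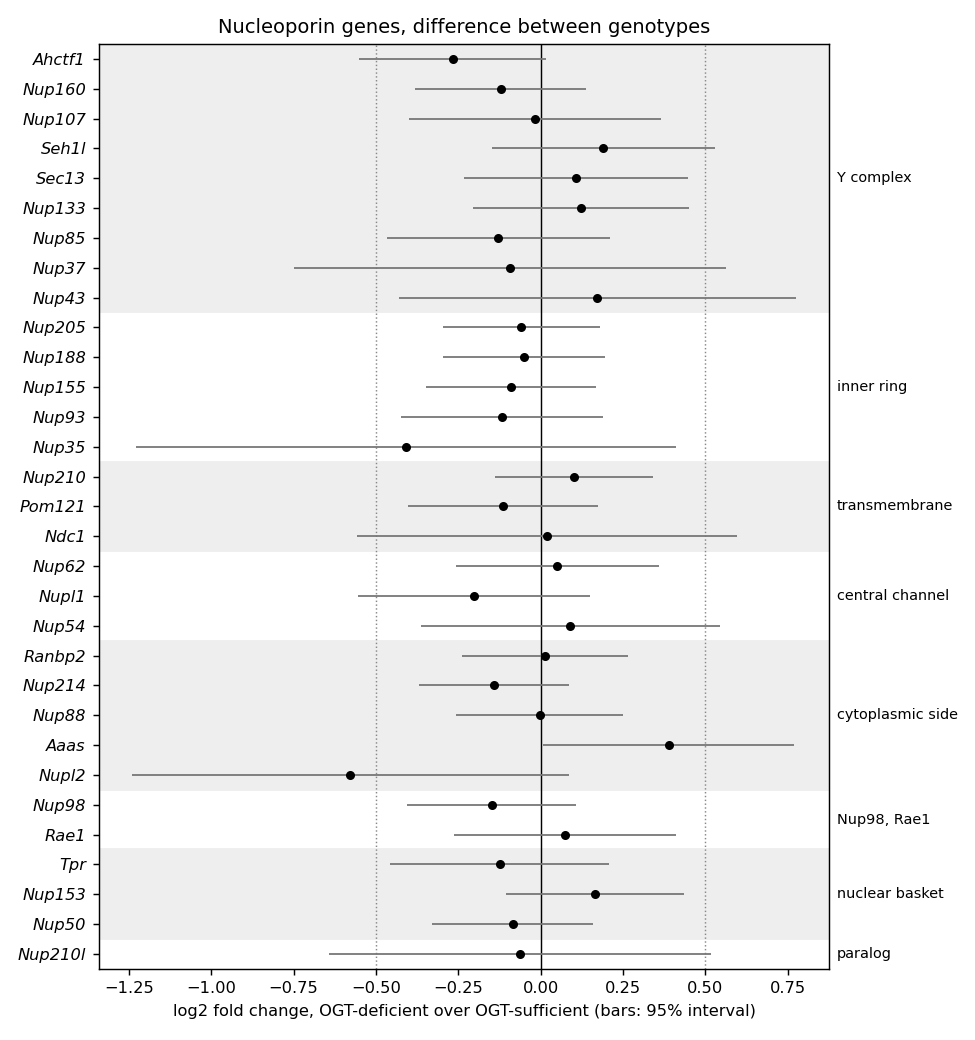
Log2 fold change (OGT-deficient over OGT-sufficient) of the 31 tested nucleoporin genes by part of the pore, with 95% intervals from edgeR's quasi-likelihood fit. Dotted lines mark 0.5 on either side of 0; 30 of the 31 intervals include 0, and that of *Aaas* starts at 0.0079.

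*Aaas* was the gene with an unadjusted p under 0.05. It encodes aladin, a WD-repeat protein of the pore that is mutated in triple A syndrome, and lies on the minus strand at chr15:102338252-102350771 (GENCODE M21) with no other gene over its exons. Its counts were 66, 67 and 62 for OGT-sufficient and 92, 77 and 95 for OGT-deficient replicates 1 to 3, or 17.3 ± 0.902 against 22.7 ± 2.85 CPM (SD, n = 3 each). On the CPM scale too, all 3 OGT-deficient samples lay above all 3 OGT-sufficient samples. The difference was 1.31-fold, a log2 fold change of 0.39 (standard error 0.17, 95% interval 0.0079 to 0.77, unadjusted p = 0.046, adjusted p = 0.685). Over the alternative settings its unadjusted p ran from 0.025 to 0.120, and 5 of the 15 settings kept it under 0.05. Among the fits that leave out 1 library, it was under 0.05 only without OGT-deficient replicate 2, and its log2 fold change was between 0.35 and 0.52.

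The other genes of the cytoplasmic side were spread around 0. *Nupl2*, which encodes an FG-repeat protein that takes part in mRNA export with Gle1, was at 6.68, 5.93 and 4.74 CPM in OGT-sufficient samples and 3.61, 4.55 and 3.41 CPM in OGT-deficient samples. It had the most negative log2 fold change of the nucleoporin genes, -0.58 (95% interval -1.24 to 0.086, unadjusted p = 0.080), on 13 to 25 counts per sample. Its groups did not overlap, with the lowest OGT-sufficient sample just above the highest OGT-deficient one. *Nup214*, the FG-repeat protein that anchors the mRNA export machinery on the cytoplasmic face, was at 129, 136 and 135 CPM against 121, 124 and 118 CPM. Its groups did not overlap either, and the difference was small, 0.91-fold (95% interval 0.77 to 1.06, unadjusted p = 0.192). *Ranbp2* was at 387, 403 and 455 CPM against 405, 429 and 423 CPM, with a log2 fold change of 0.012 (95% interval -0.24 to 0.26). *Nup88*, the partner of *Nup214*, had a log2 fold change of -0.0028 (95% interval -0.26 to 0.25).

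The Y complex is the outer scaffold ring on both faces of the pore. The 9 genes grouped under it here summed to 395, 394 and 414 CPM in OGT-sufficient and 383, 385 and 366 CPM in OGT-deficient samples. *Nup98*, whose transcript also encodes a Y complex protein, is given apart below and is not part of these sums. These sums did not overlap between the groups, and the fold of their means was 0.94, but the separation came from *Ahctf1*. Without it the other 8 genes summed to 250, 256 and 236 against 257, 259 and 235 CPM, which overlapped. The sums per kilobase of exon overlapped too, at 66.4, 67.4 and 64.4 against 67.2, 67.1 and 62.4 RPKM. *Ahctf1* encodes ELYS, the protein that brings the Y complex to chromatin when pores are assembled after mitosis. It was at 145, 138 and 178 CPM in OGT-sufficient and 126, 126 and 131 CPM in OGT-deficient samples. All OGT-deficient samples were lower, and the log2 fold change was -0.27 (95% interval -0.55 to 0.015, unadjusted p = 0.061). Without OGT-sufficient replicate 3, its highest sample, the log2 fold change was -0.14. The exons of *Ahctf1* overlap 2 other genes. *Nup160* was at 56.9, 56.6 and 58.7 CPM against 53.9, 55.2 and 49.3 CPM, again without overlap, with a log2 fold change of -0.12 (95% interval -0.38 to 0.14). A further 4 members, *Seh1l*, *Nup43*, *Nup133* and *Sec13*, had positive log2 fold changes between 0.11 and 0.19. *Seh1l*, which also serves in the GATOR complex of amino acid sensing, was at 35.5, 39.6 and 34.5 CPM against 35.9, 48.3 and 40.9 CPM. *Nup43* was at 5.34, 4.85 and 5.79 against 4.90, 6.83 and 6.29 CPM, and *Nup133* at 28.6, 28.0 and 27.1 against 29.9, 34.2 and 27.0 CPM. In each of these the groups overlapped. *Nup107*, *Nup85* and *Nup37* had log2 fold changes between -0.13 and -0.018.

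The inner ring, which lines the membrane and holds the channel proteins, was the part of the pore in which all 5 genes had a negative log2 fold change (52.7% of all genes tested had one), none past an unadjusted p of 0.05. Their sum was 244, 248 and 244 CPM in OGT-sufficient and 239, 229 and 230 CPM in OGT-deficient samples, without overlap and with a fold of 0.95 between the means. The large scaffold genes *Nup205*, *Nup188* and *Nup155* had log2 fold changes of -0.060, -0.051 and -0.091, although *Nup188* was at 0.013 with a length and GC correction and at 0.0029 without OGT-sufficient replicate 1. Their replicates were close together, with *Nup205* at 80.6 ± 1.49 against 77.3 ± 2.36 CPM (SD, n = 3 each). *Nup93*, the hub that links the ring to the channel, had -0.12 (95% interval -0.42 to 0.19). *Nup35* was low, at 3.47, 5.93 and 6.32 CPM against 3.61, 5.31 and 2.88 CPM. Its log2 fold change of -0.41 had the widest interval of the nucleoporin genes, from -1.23 to 0.41, and its exons overlap *Dusp19*.

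The central channel proteins NUP62, NUP58 (*Nupl1*) and NUP54 form the FG-repeat subcomplex at the middle of the pore. *Nup62*, the nucleoporin best known for carrying O-GlcNAc (chr7:44816088-44830812, plus strand), was at 42.0, 44.7 and 37.4 CPM in OGT-sufficient and 45.1, 45.0 and 38.3 CPM in OGT-deficient samples. The groups overlapped, and the fold was 1.04 (95% interval 0.84 to 1.28, unadjusted p = 0.719). Its exons overlap *Atf5* and *Il4i1*. *Nupl1* was at 33.1, 39.3 and 43.2 against 37.9, 32.4 and 30.1 CPM, a log2 fold change of -0.20 (95% interval -0.56 to 0.15). Without OGT-sufficient replicate 3 it was -0.10, and without OGT-deficient replicate 3 it was -0.098. *Nup54* had 0.090 (95% interval -0.36 to 0.54). Of the membrane nucleoporins, *Pom121* was at 69.2, 85.9 and 69.8 against 66.0, 70.1 and 71.5 CPM, and *Nup210* at 275, 271 and 273 against 318, 282 and 280 CPM. The *Nup210* groups did not overlap, although the log2 fold change was 0.10 (95% interval -0.14 to 0.34, unadjusted p = 0.361). *Ndc1*, which anchors the pore in the membrane, had 0.019 on 24 to 41 counts per sample.

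*Nup98*, whose transcript encodes both the FG-repeat protein NUP98 and the Y complex protein NUP96, was at 157, 162 and 139 CPM against 131, 135 and 148 CPM. The groups overlapped and the log2 fold change was -0.15 (95% interval -0.40 to 0.11). Its partner in mRNA export, *Rae1*, had 0.074 (95% interval -0.26 to 0.41). In the nuclear basket, *Nup153* was at 244, 280 and 275 CPM against 319, 266 and 312 CPM, with a log2 fold change of 0.17 (95% interval -0.10 to 0.44). *Tpr* (chr1:150392838-150449935, plus strand) was at 623, 624 and 854 CPM in OGT-sufficient and 645, 621 and 661 CPM in OGT-deficient samples. OGT-sufficient replicate 3 was far above the other 5 samples, which lay between 621 and 661 CPM. The log2 fold change was -0.12 (95% interval -0.46 to 0.21), and it was 0.052 without OGT-sufficient replicate 3. The exons of *Tpr* overlap *Odr4* and *Prg4*. *Nup210l* had -0.063 (95% interval -0.64 to 0.52).

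**Figure D3:**
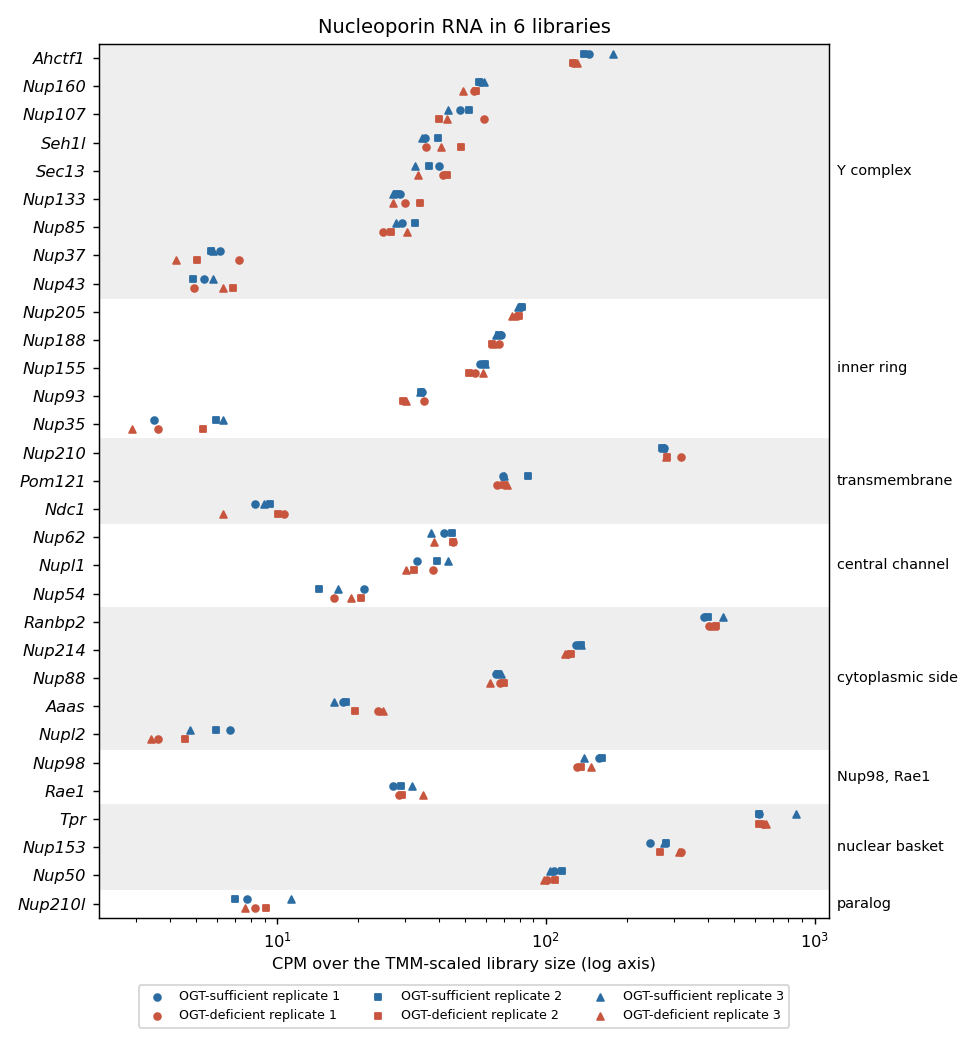
CPM on a log axis for the 31 tested nucleoporin genes in each of the 6 libraries, by part of the pore (blue OGT-sufficient, red OGT-deficient; the marker shape gives the replicate). Most genes have intermixed symbols; *Aaas* has its 3 red symbols to the right, and *Tpr* and *Ahctf1* have OGT-sufficient replicate 3 to the right of the others.

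The genes for FG-repeat proteins, which hold many of the known O-GlcNAc sites, were compared with the others as a description. The 11 FG genes (*Nup62*, *Nup54*, *Nupl1*, *Nup98*, *Nup153*, *Nup214*, *Ranbp2*, *Nup50*, *Pom121*, *Nupl2* and *Nup35*) had a median log2 fold change of -0.11, with 7 on the lower and 4 on the higher side. The other 20 genes tested had a median of -0.035, with 12 on the lower and 8 on the higher side. Of all genes tested, 52.7% were on the lower side. None of the FG genes and 1 of the others had an unadjusted p under 0.05 (7.1% of all genes tested had), and the difference between these groups of genes was not tested.

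**Figure D4:**
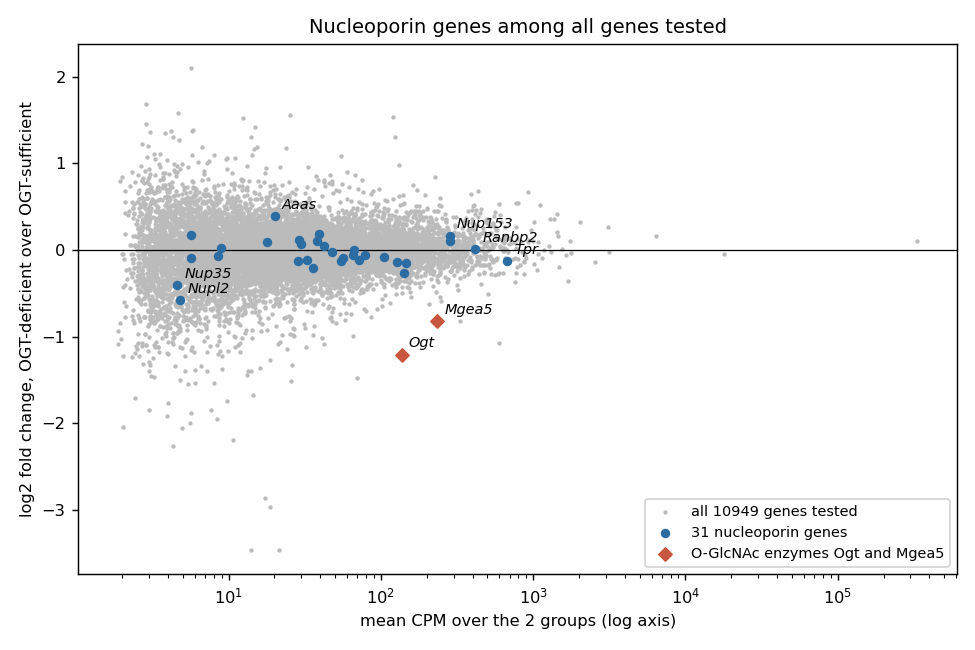
Log2 fold change (OGT-deficient over OGT-sufficient) against the mean CPM of the 2 groups on a log axis, for all 10949 genes tested (grey), the 31 nucleoporin genes (blue) and the enzymes *Ogt* and *Mgea5* (red). The nucleoporin genes lie between -0.58 and 0.39, while *Mgea5* is at -0.82 and *Ogt* at -1.21.

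The soluble partners of the pore were examined as lists of importins, exportins, Ran cycle genes and mRNA export factors. Importins and exportins are the receptors that carry cargo through the FG channel, and Ran is the GTPase that sets their direction. Of the 47 genes listed, 45 were tested, with a median log2 fold change of -0.068, 28 on the lower and 17 on the higher side (52.7% of all genes tested were on the lower side). At an unadjusted p under 0.05, 1 was lower and 1 was higher, which is 4.44% beside 7.1% of all genes tested, and 0 passed an FDR of 0.1 (DESeq2 gave 0 and edgeR's exact test 1 at an unadjusted p under 0.05). The lower one was *Tnpo2*, an import receptor for RNA-binding proteins, at 46.0, 49.0 and 56.1 CPM against 35.6, 42.8 and 42.5 CPM, with a log2 fold change of -0.32 (95% interval -0.64 to -0.0071, unadjusted p = 0.046, adjusted p = 0.685). The higher one was *Thoc3*, a subunit of the THO complex that couples transcription to mRNA export, at 13.4, 14.3 and 14.5 CPM against 16.8, 21.5 and 19.1 CPM, with a log2 fold change of 0.45 (95% interval 0.046 to 0.85, unadjusted p = 0.033, adjusted p = 0.668). The central import receptor *Kpnb1* had a log2 fold change of -0.15 (95% interval -0.40 to 0.11), the main exportin *Xpo1* -0.20 (95% interval -0.48 to 0.085) and *Ran* 0.15 (95% interval -0.15 to 0.45). Single libraries moved these values: *Xpo1* was at -0.072 without OGT-sufficient replicate 3, and without OGT-sufficient replicate 2 *Kpnb1* was at -0.036 and *Ran* at 0.27. By list, the medians were -0.10 over 16 importins, -0.14 over 7 exportins, 0.16 over 6 Ran cycle genes and -0.033 over 16 mRNA export factors.

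Beside the pore, the 10 genes of the nuclear lamina and envelope had a median log2 fold change of -0.0032, with 5 on each side of 0. At an unadjusted p under 0.05, 1 of the 10 was lower, where 4.01% of all genes tested were: *Lmnb1*, which encodes a B-type lamin, at 195, 200.2 and 181 CPM against 164, 165 and 162 CPM, with a log2 fold change of -0.23 (95% interval -0.46 to -0.00096, unadjusted p = 0.049, adjusted p = 0.697). Over the 15 alternative settings the unadjusted p of *Lmnb1* ran from 0.025 to 0.210, and 2 of them kept it under 0.05. The other B-type lamin gene, *Lmnb2*, had a log2 fold change of -0.14 (95% interval -0.68 to 0.40). New pores are made as cells grow and divide, so 15 proliferation genes were read beside them. Their summed level was 1931, 1639 and 2091 CPM in OGT-sufficient and 1548, 1654 and 1661 CPM in OGT-deficient samples, and the groups overlapped. The median log2 fold change was -0.15, with 11 genes on the lower and 4 on the higher side (52.7% of all genes tested were on the lower side). Of the 15, 0 had an unadjusted p under 0.05, where 7.1% of all genes tested had.

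**Figure D5:**
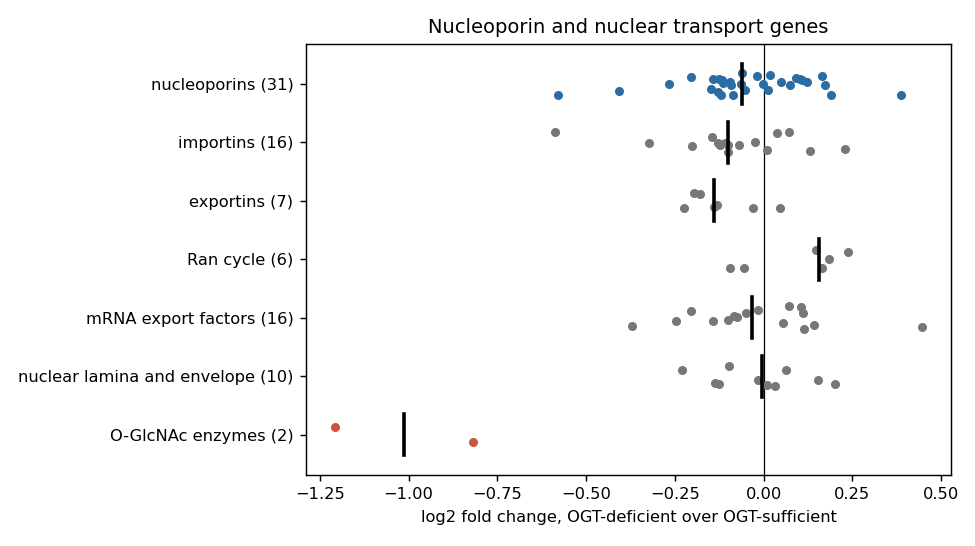
Log2 fold change (OGT-deficient over OGT-sufficient) of each tested gene by list, with the number tested in brackets and the median as a black line. The nucleoporin, transport and lamina lists centre within 0.16 of 0, and the 2 O-GlcNAc enzymes lie at -0.82 and -1.21.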

How the data were processed

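RNA of YFP+ Treg cells was sequenced as paired-end reads. The authors trimmed the reads with Trimmomatic 0.33 and aligned them with Bowtie2 2.2.4.0 to mm10, and deposited whole-number counts per gene symbol for 6 samples, which carry no scaling. The submitters' processing notes name featureCounts as the counter, whereas the paper names Cuffquant. How reads shared by overlapping genes were treated, and the strand setting, are not given in the sources used here. The same table holds the authors' own fold changes and p-values, which were not used.

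Tests were run with edgeR 4.0.16 and DESeq2 1.42.0 under R 4.3.3, and plots were made in Python 3.11.15. The quasi-likelihood fit used TMM scaling and genes kept by filterByExpr at a minimum count of 10, without a replicate block, and p-values were adjusted by Benjamini-Hochberg over the 10949 genes tested. The standard error was taken as the absolute log2 fold change divided by the root of the F statistic, and the 95% intervals used the degrees of freedom of that fit. The procedure was tested on simulated data. After TMM scaling the libraries held 3712093 to 3952583 counts, and 3 counts, the limit that a count of 0 allows, equalled 0.759 to 0.808 CPM (counting error only). Positions, exon lengths and overlaps came from GENCODE M21 (GRCm38, the assembly also called mm10), which held 23375 symbols of the table, with 670 more matched through RefSeq synonyms. Of the nucleoporin genes 32 matched, and the exons of 11 overlap another gene, so their counts may mix.

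The nucleoporin genes, the parts of the pore and the other lists were chosen with earlier results of these data known. Values by sample are given for genes with an unadjusted p under 0.05, the 5 most negative and 5 most positive log2 fold changes, the highest and lowest levels, untested genes and the main FG-repeat genes. A few further genes whose groups did not overlap were named after their values were seen. Replicates were separate libraries, with a chi-square per degree of freedom between 3.31 and 22.0. The alternatives comprised edgeR's exact test, DESeq2, its size factors in edgeR, library size only, TMM without *Rn45s*, other filters, the replicate block, a length and GC correction, and each sample left out.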

Additional observations from a re-analysis of the deposited data

How the results depend on the processing

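No nucleoporin gene passed an FDR of 0.1, and none was lower at an unadjusted p under 0.05, in any of the 15 alternatives. The 1 gene higher at that p, *Aaas*, was not past it with DESeq2, the exact test, library size only, the replicate block or the length and GC correction (0 genes each), and the fits without 1 library gave 0 to 1. Of the 31 genes tested, 21 kept the sign of their log2 fold change in every alternative, and 28 of 465 values changed sign, all in genes with no direction called. The median log2 fold change of the nucleoporin genes was -0.10 with library size only, -0.0058 without a low-count filter and -0.0081 with the length and GC correction. It ran from -0.074 to 0.011 with 1 library left out (0.011 without OGT-deficient replicate 3). The median over the genes tested in the reported fit, -0.017 there, moved as well. That median was -0.063 with library size only, 0.032 without a low-count filter and 0.013 with the length and GC correction. Without OGT-deficient replicate 3 it was 0.0058. The number of genes whose groups did not overlap was 6, against 4 with library size only or no low-count filter, and 7 with at least 10 counts in every sample. It ran from 7 to 13 with 1 library left out, where smaller groups separate more easily (10 without OGT-sufficient replicate 3, 13 without OGT-deficient replicate 1 or 3). The share over all genes tested was not computed in these settings. Transport genes at an unadjusted p under 0.05 numbered 2, against 0 with DESeq2 or library size only, 1 with the exact test, DESeq2's size factors, no filter or the length and GC correction, and 0 to 2 with 1 library left out (0 when OGT-sufficient replicate 1 or OGT-deficient replicate 2 or 3 was dropped). The cause of these moves was not tested. *Ogt* passed an FDR of 0.1 with DESeq2 (log2 fold change -1.18), the exact test (-1.21) and no filter (-1.15). Over all genes, 3 passed an FDR of 0.1, against 131 when no filter was used, 80 with the exact test, 40 with DESeq2, 1 with the length and GC correction and 0 with the replicate block. Samples with the same replicate number did not deviate together (correlations of -0.281, 0.0073 and -0.118); with the replicate block the median log2 fold change of the nucleoporin genes was -0.052. Genes under about 20 counts per sample, such as *Nup35* and *Nupl2*, have intervals that reach beyond a 2-fold difference.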
